A study of Mus musculus with 16 samples.

Results

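The genes described here are 10 genes of the canonical Wnt pathway in mouse embryonic stem cells: the transcriptional partners β-catenin (Ctnnb1), Tcf7, Tcf7l1, Tcf7l2 and Lef1, the feedback targets Axin2, Sp5, Znrf3 and Nkd1, and the secreted modulator Sfrp1. They were chosen by name with earlier results of these data known, so their counts beside those of all genes are a description, and the Ensembl identifiers of all 10 were found among the 52636 gene identifiers of the count table. The cells were CRAFR26, a line of mouse embryonic stem cells that carries a c-RAF kinase construct which 4-hydroxytamoxifen (4OHT) switches on, so that the ERK pathway is induced without a growth factor. Cells in all groups carried the construct and had been grown with the GSK3 inhibitor Chir (3 µM) and 1000 U/ml of the cytokine LIF. For 48 h before the experiment, 250 nM of the FGF receptor inhibitor PD17 took the place of 1 µM of the MEK inhibitor PD03. RNA was taken from uninduced cells (group 0h), from cells that had had 250 nM 4OHT for 2 h (group 2h) or 4 h (group 4h), and from cells in which 4 h of 4OHT was followed by 2 h of a MEK inhibitor (group rev), making 4 groups. Each group held 4 libraries, 2 from clone 4 and 2 from clone 8 of the line. The design had no vehicle control for 4OHT and no culture kept for 6 h without the MEK inhibitor, so the effects of ERK, of the drug and of the hours in culture cannot be told apart. No label says how replicates of a clone were separated, and the p-values measure only the spread between these libraries.

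In the canonical Wnt pathway, a destruction complex built on Axin and APC phosphorylates β-catenin through GSK3 and so marks it for degradation. When a Wnt ligand binds Frizzled and LRP receptors, or when GSK3 is inhibited by a drug, β-catenin accumulates and enters the nucleus, where it binds the TCF/LEF factors on the DNA. Since all groups were kept with a GSK3 inhibitor, the comparisons were made between cells that all had a drug known to switch the pathway on. No group lacked the drug, so its effect on the pathway in these cells was not measured. In embryonic stem cells Tcf7l1 is known as a repressor of pluripotency genes that β-catenin relieves, whereas Tcf7 and Lef1 are known mainly as activators. Many targets of the pathway are themselves its inhibitors: Axin2 rebuilds the destruction complex, the ubiquitin ligase Znrf3 removes Frizzled receptors, Nkd1 binds Dishevelled, and Sp5 is a zinc-finger factor that acts on other Wnt targets. Sfrp1 encodes a secreted protein that binds Wnt ligands.

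The 250 bases before the RefSeq start of transcription (GRCm38.p6) were available for 8 of the 10 genes, not for Sfrp1 and Znrf3. Where RefSeq gave several starts (4 for Lef1 and 2 each for Tcf7, Tcf7l2 and Ctnnb1), the one furthest upstream was used. They were searched on both strands for the letters that TCF/LEF factors bind, CTTTGA and CTTTGT, 2 motifs that do not overlap each other's matches here. Of the 8 genes, 2 held a match, Sp5 with 4 and Tcf7l1 with 1 (bases -28 to -23), against 27.6% of 32851 windows of the same length. None of the 8 held CCGGAA (ETS factors, 12% of windows), TGANTCA (AP-1, 6.75%) or GCGTGGGCG (EGR factors, 0.536%). Of the 250 bases of the Tcf7l1 window, 209 are exon of the gene in GENCODE M21, whose start lies further upstream, and the match is among them. The windows of Ctnnb1 and Nkd1 also lie inside the gene as GENCODE M21 draws it. The Tcf7 window lies outside that gene model, but its letters read in frame from an ATG to the last base with no stop codon. Whether it is coding sequence of a longer transcript was not tested. Its lack of matches is thus not a result on a promoter. A match of letters is a description and does not show that a factor binds there. 3 windows are shown 5′ to 3′, with TCF/LEF matches in capitals: Sp5 because it held most matches, Axin2 because it rose with Sp5 at 2h, and Tcf7l2 because its change was the largest of the 10 genes at 4h. The Sp5 window is chr2:70474673-70474922 (+ strand), the Axin2 window chr11:108920099-108920348 (+) and the Tcf7l2 window chr19:55741560-55741809 (+).
Sp5: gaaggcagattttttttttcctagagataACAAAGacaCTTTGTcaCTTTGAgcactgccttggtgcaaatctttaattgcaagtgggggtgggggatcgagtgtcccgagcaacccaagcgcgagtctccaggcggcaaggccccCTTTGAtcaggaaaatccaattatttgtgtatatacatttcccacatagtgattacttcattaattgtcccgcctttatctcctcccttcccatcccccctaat
Axin2: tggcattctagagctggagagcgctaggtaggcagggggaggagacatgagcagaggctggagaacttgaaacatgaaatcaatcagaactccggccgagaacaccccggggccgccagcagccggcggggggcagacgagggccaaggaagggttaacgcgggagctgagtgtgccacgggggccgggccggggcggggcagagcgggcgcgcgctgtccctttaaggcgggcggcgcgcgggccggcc
Tcf7l2: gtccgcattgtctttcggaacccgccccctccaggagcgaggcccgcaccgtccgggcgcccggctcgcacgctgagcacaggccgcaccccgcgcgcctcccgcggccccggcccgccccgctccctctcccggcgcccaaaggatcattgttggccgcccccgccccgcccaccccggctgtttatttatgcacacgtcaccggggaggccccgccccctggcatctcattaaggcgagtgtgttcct
In Sp5, counted from the start of transcription, 1 match to CTTTGT lay on the opposite strand (bases -221 to -216, read as ACAAAG). The other 3 lay on the same strand, at bases -212 to -207, -204 to -199 and -104 to -99. The windows of Axin2 and Tcf7l2 held none of the letters searched.

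Total counts per library ranged from 2172651 to 12680303, and the 8 most abundant gene models took 42.0% to 80.4% of them, so the levels below are CPM of a library size scaled by TMM, a factor that corrects for such abundant models. The share was highest in the rev library of clone 8 replicate 2, whose TMM factor was 0.463, against 0.852 to 1.47 in the other 15 libraries. Induction itself was seen in 6 early ERK targets (Spry4, Spry2, Dusp6, Egr1, Fos and Etv4), whose summed level was 56.2 to 70.6 CPM at 0h, 612 to 908 at 2h, 575 to 844 at 4h and 45.1 to 71.2 in rev. The sum hides differences in rev against 0h, where Spry4 (3.22-fold) and Etv4 (2.71-fold) were higher and Egr1 (0.391 of its 0h level) and Spry2 (0.806) lower, all called by edgeR. It also hides differences at 4h against 2h. There Egr1 (log2 -0.75) and Fos (-1.41) were called lower, and Spry4 (0.74), Dusp6 (0.86) and Etv4 (1.03) higher. The libraries had the RNA of stem cells: 8 of 8 stem cell markers passed the filter on low counts, with a summed level of 1594 to 2310 CPM. Within this sum Nanog (log2 -0.68), Klf4 (-0.35) and Tfcp2l1 (-0.31) were called lower at 4h against 0h. Tdgf1 (0.60), Zfp42 (0.40), Sox2 (0.38), Pou5f1 (0.26) and Esrrb (0.23) were called higher. In rev against 4h all of these but Esrrb were called in the other direction. Markers of primitive endoderm (6 genes, 3.26 to 7.21 CPM summed) and of fibroblasts (6 genes, 1.87 to 7.66 CPM summed, with Postn and Dcn at 0 counts in all libraries) were low. The fibroblast sum was 2.44 to 3.74 CPM at 0h and 2.98 to 7.66 in rev. Col1a1 of that list was called higher than at 0h at 2h (log2 1.57) and in rev (1.93), at 2 to 22 counts per library. Without either of those groups it would not have passed the filter, so these calls are no support. The summed level of 5 markers of mesoderm and primitive streak was 9.01 to 14.7 CPM at 0h, 9.73 to 18.4 at 2h, 16.3 to 26.2 at 4h and 12.4 to 16.7 in rev. For 5 neural markers it was 53.4 to 70.1, 43.7 to 60.9, 40.8 to 50.2 and 63.4 to 70.8 CPM. Single markers went against these sums: of the mesoderm list Gsc was lower at 4h against 0h (log2 -1.40, SE 0.36) and higher in rev against 4h (2.11, SE 0.33), and of the neural list Pax6 was higher at 4h against 0h (1.63, SE 0.43), all called by edgeR. The part of these shifts in the results below was not tested. In bulk RNA, fewer cells that express a gene and less RNA per cell cannot be told apart.

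All 10 genes passed the filter, which 12215 genes passed. Compared per length, as RPKM (CPM divided by the kilobases of exon), Ctnnb1 stood highest, with group means of 36.8 to 40.4. Next came Tcf7l1 (16.7 to 23.9), Sfrp1 (18.4 to 22.7), Tcf7 (12.4 to 20.8), Sp5 (10.5 to 13.4) and Axin2 (7.67 to 10.2), and the libraries of neighbours in this order overlapped. These means mix the clones, and Sfrp1 was at 7.54 to 12.4 RPKM in clone 4 and 27.9 to 35.9 in clone 8. In the 2h library of clone 8 replicate 2, Sfrp1 (35.9) stood above Ctnnb1 (33.2). Znrf3 (3.20 to 4.70) and Tcf7l2 (1.99 to 3.86) were lower and also overlapped each other. Lef1 (0.438 to 0.787) and Nkd1 (0.340 to 0.468) were lowest, at 5 to 103 and 4 to 28 counts per library. Exons of Ctnnb1 (15.06% of exon bases), Lef1 (13.75%), Tcf7l1 (4.56%) and Axin2 (3.8%) overlap other gene models, all on the opposite strand but for Mir7090, which lies with Ulk4 in the stretch of Ctnnb1 and is on its strand. How strand was used in counting is not given in the sources used here, and reads in those stretches could not be assigned.

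**Figure D1:**
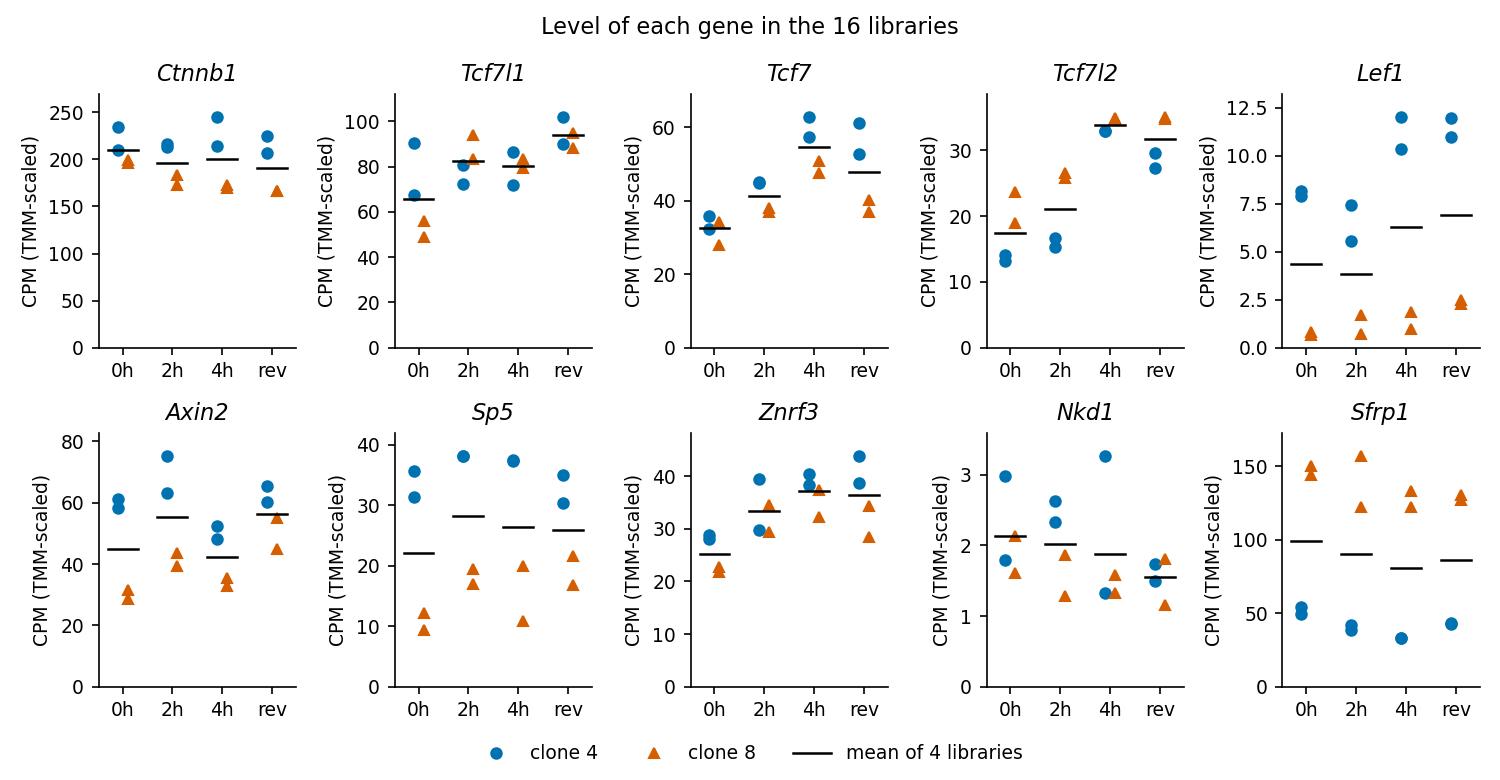
TMM-scaled CPM (vertical axes from 0) of the 10 genes in the 16 libraries by group (0h, 2h, 4h, rev). Circles are clone 4, triangles clone 8 and black lines the mean of 4 libraries. Tcf7 and Tcf7l2 at 4h lie above all 0h libraries, while for Sp5, Lef1 and Sfrp1 the clones are further apart than the groups.

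After 2 h of 4OHT, 6 of the 10 genes were higher than before induction: the targets Znrf3, Sp5 and Axin2 and the factors Tcf7l1, Tcf7 and Tcf7l2, by 1.24-fold to 1.37-fold. None was lower. Among all genes tested, 11.4% were called higher and 9.68% lower in this comparison, in edgeR's quasi-likelihood test with Benjamini-Hochberg adjusted p under 0.05. The median log2 fold change of the 10 genes was 0.32, beside -0.02 over all tested genes. After 4 h, 6 genes were higher (Tcf7l2, Tcf7, Lef1, Znrf3, Sp5 and Tcf7l1) and Sfrp1 was lower, beside 17.2% of all genes called higher and 16.8% lower. Axin2 was no longer among the higher genes. The median of the 10 was 0.33 beside -0.02. Between 2 h and 4 h, Lef1, Tcf7l2 and Tcf7 rose and Axin2 fell, while 3.8% of all genes were called higher and 3.52% lower. The count of called genes was 2 at 2h against 0h without 0h clone 8 replicate 2. It was 4 at 4h against 0h without either 0h library of clone 8 or without 4h clone 4 replicate 2. It was 2 at 4h against 2h without the first library of clone 4 of either group.

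After the MEK inhibitor, Axin2 was the single gene of the 10 called against 4h, and it was higher (without rev clone 4 replicate 2 Tcf7 was called as well, which makes 2). No gene of the 10 was called lower, beside 7.93% of all genes called higher and 8.43% called lower. Against 0h, 6 of the 10 were higher in rev (Tcf7l2, Lef1, Tcf7l1, Znrf3, Tcf7 and Axin2) and none was lower, where 12.4% of all genes were called higher and 9.86% lower. In a fit of the 2 groups alone Sfrp1 was called lower as well (-0.23), which makes 7. The comparisons against 0h share the 0h libraries, and those with 4h share the 4h libraries, so their values are not independent of each other.

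These counts depended on how libraries were scaled. With library size alone, without a composition factor, the median over all tested genes moved to -0.41 in rev against 4h and to -0.32 in rev against 0h. In that setting 57 genes were called higher and 1671 lower in rev against 4h, beside 969 and 1030 with TMM, and 105 and 905 in rev against 0h, beside 1518 and 1204. At 4h it called 554 higher and 327 lower against 0h, beside 2098 and 2048, and 88 and 12 against 2h, beside 464 and 430. At 2h against 0h it called 204 and 134, beside 1390 and 1182. Of the 10 genes, 2 (Tcf7 and Tcf7l2 at 4h against 0h) were then called in any comparison between groups. Axin2 in rev against 4h was then at -0.03, turned in sign but above that median. Without the clone term, 0 of the 10 genes were called at 2h, 3 at 4h and 4 in rev, each against uninduced cells, and 0 in the other comparisons between groups.

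**Figure D2:**
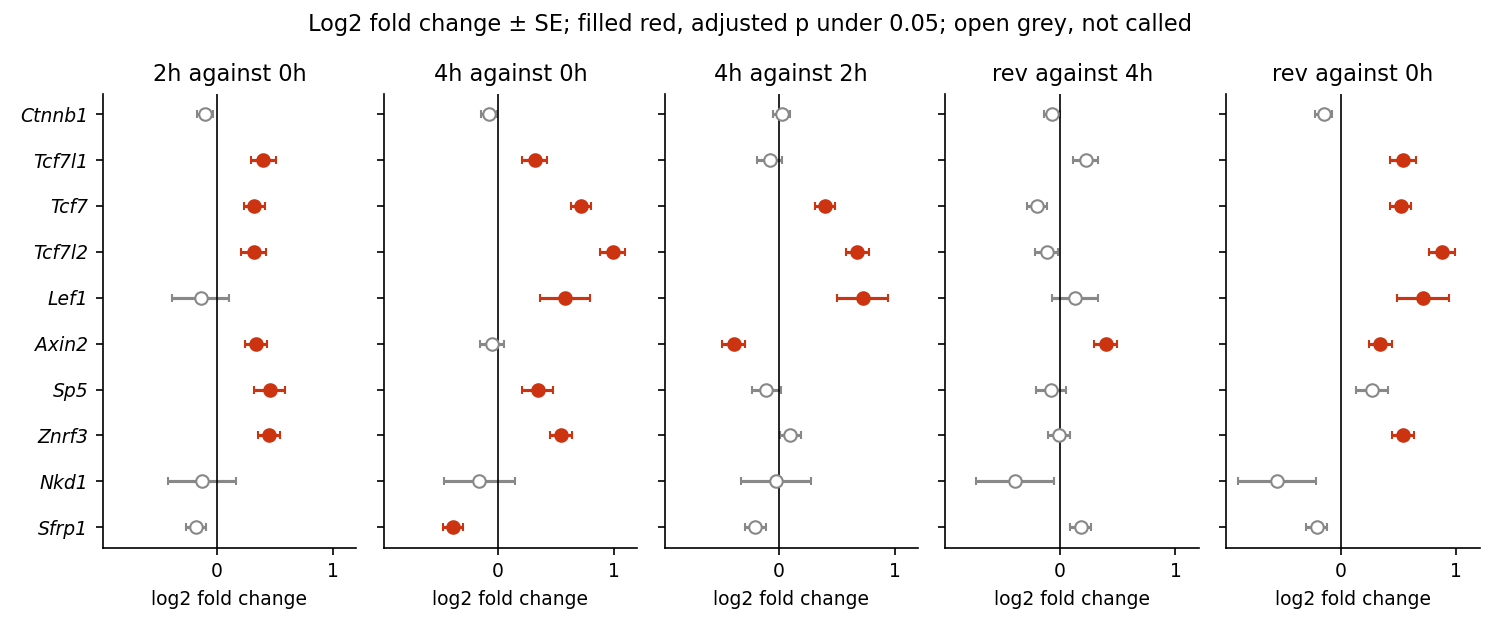
Log2 fold change with SE of the 10 genes in the 5 comparisons between groups, from 1 edgeR model of 16 libraries with clone as a covariate. Filled red points are called at adjusted p under 0.05, open grey points are not. In the 2h panel 6 red points lie to the right of 0, and in the panel of rev against 4h Axin2 alone is called.

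Tcf7l2, a TCF factor that can activate or repress, changed most. It was at 14.1 and 13.1 CPM in clone 4 and at 23.6 and 19.0 CPM in clone 8 before induction. At 2h it was at 16.7, 15.3, 25.8 and 26.5 CPM in the same order, and at 4h at 32.9, 32.9, 34.9 and 34.7 CPM. All libraries of 4h thus lay above those of 0h and of 2h, and the clones, which were apart before, came within a few CPM of each other. The log2 fold change at 4h was 0.99 (SE 0.11, edgeR adjusted p = 6.19e-09), a 1.99-fold rise. In rev it was at 29.5 and 27.4 CPM in clone 4 and 35.1 and 34.7 in clone 8, which did not pass the test against 4h (-0.12, SE 0.10, edgeR adjusted p = 0.485) and was 0.88 above 0h (SE 0.11, edgeR adjusted p = 5.9e-07). The smaller rise at 2h (0.32, SE 0.11, edgeR adjusted p = 0.0394) was lost in 5 of the 16 fits that leave out a library: each of 0h clone 4 replicate 1 and replicate 2, 0h clone 8 replicate 2 and both 2h libraries of clone 8 (0.25 to 0.30). It was not called either in DESeq2 (0.31), in a fit of the 2 groups alone (0.30) or with a replicate block in place of clone (0.31). Nor was it called with the share of the 8 most abundant models as a covariate (0.27).

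Tcf7, a TCF factor first known from T cells, rose in steps. Its levels at 0h were 32.3 and 35.8 CPM in clone 4 and 27.8 and 34.2 in clone 8. At 2h they were 45.1, 44.7, 37.0 and 38.0 CPM, and at 4h they were 57.3, 62.8, 47.5 and 50.8 CPM. The 3 groups did not overlap. The log2 fold change was 0.32 at 2h (SE 0.09, edgeR adjusted p = 0.00904), 0.72 at 4h (SE 0.09, edgeR adjusted p = 9.5e-08) and 0.40 between 2h and 4h (SE 0.09, edgeR adjusted p = 0.00245). In rev, clone 4 was at 52.8 and 61 CPM and clone 8 at 37.0 and 40.1 CPM. All 4 lay above 0h, by 0.52 on the log2 scale (SE 0.09, edgeR adjusted p = 0.0001). Against 4h the difference was -0.20 (SE 0.09, edgeR adjusted p = 0.121), and it was called (-0.28) only when rev clone 4 replicate 2 was left out.

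Tcf7l1, the repressor among the TCF factors of stem cells, was higher at 2h by 0.40 on the log2 scale (SE 0.11, edgeR adjusted p = 0.00802) and at 4h by 0.32 (SE 0.11, edgeR adjusted p = 0.0245). Its 0h libraries were at 90.4 and 67.3 CPM in clone 4 and at 48.7 and 56.0 CPM in clone 8. At 2h they were at 80.7, 72.3, 83.5 and 94.0 CPM and at 4h at 72, 86.3, 79.2 and 83.4 CPM. In clone 8 the induced libraries lay above 0h, and in clone 4 they overlapped it. Within clone 8 the log2 fold change was 0.76 at 2h and 0.62 at 4h, and within clone 4 it was -0.00 and 0.03. The rise at 2h was lost without 0h clone 8 replicate 1 (0.29), 0h clone 8 replicate 2 (0.34) or 2h clone 8 replicate 2 (0.30). The rise at 4h was lost without either 0h library of clone 8 (0.21 and 0.26), without 4h clone 4 replicate 2 (0.29) or without either 4h library of clone 8 (0.31 and 0.29), and in DESeq2 (0.31). In rev Tcf7l1 was at 90.2 and 102 CPM in clone 4 and 88.2 and 94.7 CPM in clone 8, above all 4h libraries. The log2 difference from 0h was 0.54 (SE 0.11, edgeR adjusted p = 0.000574), and that from 4h was 0.22 (SE 0.11, edgeR adjusted p = 0.17), which passed in a fit of the 2 groups alone (0.23).

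Lef1, an activator and itself a known Wnt target, was expressed mostly in clone 4. Its clone 4 libraries were at 8.15 and 7.91 CPM at 0h, 5.57 and 7.44 at 2h, 10.3 and 12 at 4h and 11 and 11.9 in rev. The clone 8 libraries were at 0.804 and 0.641, 1.69 and 0.710, 0.949 and 1.84, and 2.49 and 2.25 CPM, which are 5 to 20 counts. In each clone all 4h and rev libraries were above the 0h libraries. The log2 fold change was 0.58 at 4h against 0h (SE 0.22, edgeR adjusted p = 0.0367), 0.72 at 4h against 2h (SE 0.22, edgeR adjusted p = 0.0407) and 0.71 in rev against 0h (SE 0.22, edgeR adjusted p = 0.0194). These calls were near the threshold. The one at 4h against 0h was lost in 6 of 16 fits without a library (0h clone 4 replicate 2, both 0h libraries of clone 8, both 4h libraries of clone 4 and 4h clone 8 replicate 2, at 0.46 to 0.71), in DESeq2 (0.60) and in a fit of the 2 groups alone (0.53). The one at 4h against 2h was lost in 9 of 16 (both 2h and both 4h libraries of clone 4, the second 2h and 4h libraries of clone 8, both rev libraries of clone 4 and the first of clone 8, at 0.46 to 0.78) and in DESeq2 (0.66). It was lost as well with a replicate block in place of clone. The one in rev against 0h was lost without rev clone 8 replicate 1 (0.64).

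Ctnnb1, which encodes β-catenin, was called in none of the 5 comparisons between groups. It was at 197 to 234 CPM at 0h (median 205), 172 to 217 at 2h (median 198), 170 to 245 at 4h (median 193) and 166 to 225 in rev (median 186). Over both clones the groups overlapped. In clone 8 the libraries of each later group lay below those of the one before (from 2h to 4h only barely), at 197 and 199, 183 and 172, 170 and 172, and 166 and 166 CPM, and in clone 4 they overlapped. The log2 fold changes over both clones ran from -0.15 (rev against 0h, SE 0.07, edgeR adjusted p = 0.14) to 0.02 (4h against 2h). The first of these was called (-0.20) only when 0h clone 4 replicate 1 was left out. Transcript levels say nothing of β-catenin protein, which the pathway sets by degradation.

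The summed level per length of Tcf7l1, Tcf7, Tcf7l2 and Lef1 was 31.6 ± 5.16 RPKM at 0h (SD, n = 4), 39.6 ± 1.61 at 2h, 45.8 ± 3.70 at 4h and 46.5 ± 5.61 in rev. All libraries of 2h, 4h and rev lay above those of 0h, at 2h only barely (lowest 38.0, beside 37.9 for the highest of 0h). With the longest transcript in place of all exons, the lowest of 2h (48.0) was below the highest of 0h (48.8). Within this sum, Tcf7l1 took 52.2% ± 5.95 before induction, 53.1% ± 4.16 at 2h, 44.7% ± 3.42 at 4h and 51.7% ± 3.97 after the MEK inhibitor. Tcf7 took 39.7% ± 5.01, 39.7% ± 4.74, 45.3% ± 2.78 and 38.7% ± 4.62, and Tcf7l2 6.63% ± 2.90, 6.05% ± 1.62, 8.48% ± 0.872 and 7.93% ± 1.84. Lef1 took 1.12% to 1.61%. These means hide opposite moves in the clones. From 0h to 2h the mean share of Tcf7 went from 36.8% to 43.7% in clone 4 and from 42.6% to 35.7% in clone 8, and at 4h it was 47.6% and 43%. The mean share of Tcf7l1 went from 56.2% to 49.7% in clone 4 and from 48.2% to 56.5% in clone 8, and at 4h it was 41.9% and 47.6%. The shares are a description without a test. They depend on the gene models, since with the longest transcript in place of all exons Tcf7l2 took 12.1% at 0h and 15.5% at 4h, and at 4h Tcf7l1 lay above Tcf7 in all 4 libraries.

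Among the feedback targets, Znrf3 was higher than at 0h in each of the other groups. It was at 28 and 28.8 CPM in clone 4 and 21.7 and 22.7 CPM in clone 8 at 0h. At 2h it was at 39.5, 29.8, 29.3 and 34.5 CPM, and at 4h at 38.3, 40.4, 32.3 and 37.4 CPM. No library of 2h or 4h was below one of 0h. The log2 fold change was 0.45 at 2h (SE 0.09, edgeR adjusted p = 0.000607) and 0.55 at 4h (SE 0.09, edgeR adjusted p = 2.84e-05). In rev it was at 38.7 and 43.9 CPM in clone 4 and 34.3 and 28.4 CPM in clone 8, at -0.01 from 4h (SE 0.09, edgeR adjusted p = 0.972) and 0.54 above 0h (SE 0.10, edgeR adjusted p = 0.000115). Leaving out single libraries ended none of these 3 calls.

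Axin2 went up, down and up again. It was at 61.1 and 58.3 CPM in clone 4 and 28.6 and 31.4 CPM in clone 8 at 0h, and at 75.3, 63.1, 43.7 and 39.4 CPM at 2h. At 4h it was at 48.3, 52.3, 35.5 and 32.9 CPM, and in rev at 60.2, 65.4, 44.9 and 55 CPM. Within each clone, both 2h libraries were above the 0h and the 4h libraries, and both rev libraries were above the 4h libraries. Over both clones together the groups overlapped. The log2 change was 0.34 at 2h against 0h (SE 0.10, edgeR adjusted p = 0.00962), -0.39 at 4h against 2h (SE 0.10, edgeR adjusted p = 0.00879), 0.40 in rev against 4h (SE 0.10, edgeR adjusted p = 0.00531) and 0.34 in rev against 0h (SE 0.10, edgeR adjusted p = 0.0121). At 4h against 0h it was -0.05 (SE 0.10, edgeR adjusted p = 0.727), with both clone 4 libraries below and both clone 8 libraries above their 0h values. The rise at 2h was lost without 0h clone 8 replicate 1 (0.27), 0h clone 8 replicate 2 (0.30) or 2h clone 4 replicate 1 (0.27). The fall was lost without 2h clone 4 replicate 1 (-0.32) or 4h clone 4 replicate 1 (-0.34). The difference of rev from 0h was lost without 0h clone 8 replicate 1 (0.28) or rev clone 8 replicate 2 (0.26). The rise in rev against 4h was called without each library in turn, at 0.32 to 0.49, and was not called with the share of the 8 most abundant models as a covariate (0.16).

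Sp5 was at 35.6 and 31.3 CPM in clone 4 and at 12.2 and 9.30 CPM in clone 8 at 0h. At 2h it was at 38.2, 38.1, 19.4 and 17.0 CPM, at 4h at 37.4, 37.3, 19.9 and 10.8 CPM and in rev at 30.4, 35.0, 16.7 and 21.6 CPM. In each clone the 2h libraries were above both 0h libraries. The 4h libraries were above those of 0h in clone 4, by a few CPM, and overlapped them in clone 8. The log2 fold change was 0.45 at 2h (SE 0.13, edgeR adjusted p = 0.0114) and 0.35 at 4h (SE 0.13, edgeR adjusted p = 0.0437), and 0.27 in rev against 0h did not pass (SE 0.14, edgeR adjusted p = 0.164). The rise at 2h was lost without 0h clone 8 replicate 2 (0.31) or 2h clone 8 replicate 1 (0.40). The rise at 4h was lost in 7 of 16 fits without a library (both 0h libraries of clone 8, 2h clone 4 replicate 1, both 4h libraries of clone 4, 4h clone 8 replicate 1 and rev clone 8 replicate 1, at 0.22 to 0.34), in DESeq2 (0.34) and in a fit of the 2 groups alone (0.32).

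Nkd1 was too low to follow, at 1.16 to 3.27 CPM, and was called in no comparison. Its log2 fold changes had SE of 0.29 to 0.34, so that a change of the size seen in Axin2 or Sp5 was not detectable at this depth.

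Sfrp1 was lower at 4h than at 0h. It was at 54.0 and 49.1 CPM in clone 4 and at 144 and 150.3 CPM in clone 8 at 0h. At 4h it was at 33.2 and 32.9 CPM in clone 4 and 122 and 133 CPM in clone 8, below 0h in each clone. The log2 fold change was -0.39 (SE 0.09, edgeR adjusted p = 0.000823), and it was called without each library in turn, at -0.45 to -0.34. At 2h the levels were 38.7, 42.0, 122 and 157 CPM, with a change of -0.18 that did not pass (SE 0.09, edgeR adjusted p = 0.134) and passed without 2h clone 8 replicate 2 (-0.30). In rev they were 42.9, 43.2, 130.4 and 127 CPM, 0.18 above 4h (SE 0.09, edgeR adjusted p = 0.177) and -0.21 from 0h (SE 0.09, edgeR adjusted p = 0.0884). In clone 4 alone, where Sfrp1 is the lower, the changes at 4h against 0h (-0.63, edgeR adjusted p = 0.000186) and in rev against 4h (0.38, edgeR adjusted p = 0.0351) both passed. In clone 8 alone they did not pass (-0.21, edgeR adjusted p = 0.144, and 0.02, edgeR adjusted p = 0.95). The differences between the clones did not pass either (0.42, SE 0.16, edgeR adjusted p = 0.246 at 4h, and -0.36, SE 0.16, edgeR adjusted p = 0.808 in rev against 4h).

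The reversal by the MEK inhibitor was measured as the negative ratio of the log2 change from 4h to rev over that from 0h to 4h, which is 1 for a full return and 0 for none. It was computed for the 3 of the 7 genes called at 4h whose change was at least 0.2 in all 4 same-numbered differences. It was 0.08 ± 0.10 for Tcf7l2 (SD, n = 4), 0.03 ± 0.36 for Znrf3 and 0.32 ± 0.26 for Tcf7. The same-numbered differences are not shown to be pairs. Without clone 8 replicate 2, whose rev library had the lowest TMM factor, the values were 0.11 ± 0.11 (SD, n = 3), -0.14 ± 0.10 and 0.22 ± 0.22. With library size alone they were 0.69 ± 0.61 (SD, n = 4), 0.97 ± 1.32 and 1.47 ± 1.86, and without clone 8 replicate 2 they were 0.39 ± 0.10 (SD, n = 3), 0.32 ± 0.02 and 0.55 ± 0.34. The extent of reversal thus depended on the scaling, and with library size alone largely on that replicate.

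Most of the 10 genes differed in level between the clones. Clone 8 had more Sfrp1 and Tcf7l2 and less Lef1, Sp5, Axin2, Tcf7, Ctnnb1 and Znrf3 than clone 4, over all groups. These are 8 of the 10 genes, 2 higher and 6 lower, where 15.4% of all genes tested were called higher and 13.7% lower. Sfrp1 was 3.28-fold higher (log2 1.71, SE 0.06, edgeR adjusted p = 3.44e-20), with all 8 clone 8 libraries above all 8 of clone 4. Lef1 was at 0.154 of its clone 4 level (-2.70, SE 0.18, edgeR adjusted p = 5.8e-14) and Sp5 at 0.440 (-1.19, SE 0.10, edgeR adjusted p = 5.8e-12), each with no overlap between the clones. Axin2 was at 0.627 (-0.67, SE 0.07, edgeR adjusted p = 1.83e-09). The smaller differences were 0.39 for Tcf7l2 (SE 0.08, edgeR adjusted p = 0.000183), -0.31 for Tcf7 (SE 0.06, edgeR adjusted p = 0.000249), -0.31 for Ctnnb1 (SE 0.05, edgeR adjusted p = 1.25e-05) and -0.26 for Znrf3 (SE 0.07, edgeR adjusted p = 0.00292). Tcf7l1 (-0.09, edgeR adjusted p = 0.404) and Nkd1 (-0.45, edgeR adjusted p = 0.139) did not pass. All 8 calls held without each library in turn. With library size alone the median over all genes moved to -0.26, 288 genes were called higher and 1837 lower, beside 1886 and 1669, and the call of Tcf7l2 was lost (0.15). Markers differed between the clones too. Of the stem cell list Tdgf1 (0.87), Klf4 (0.79), Nanog (0.66) and Tfcp2l1 (0.34) were higher in clone 8, and Zfp42 (-0.30) and Sox2 (-0.18) lower. Of the neural list Sox1 (1.55) and Nes (0.37) were higher, and Pax6 (-1.70) and Tubb3 (-1.04) lower. All were called by edgeR, and their part in the differences above was not tested. A clone is 1 line of descent, so a difference between the clones is one between these 2 isolates.

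**Figure D3:**
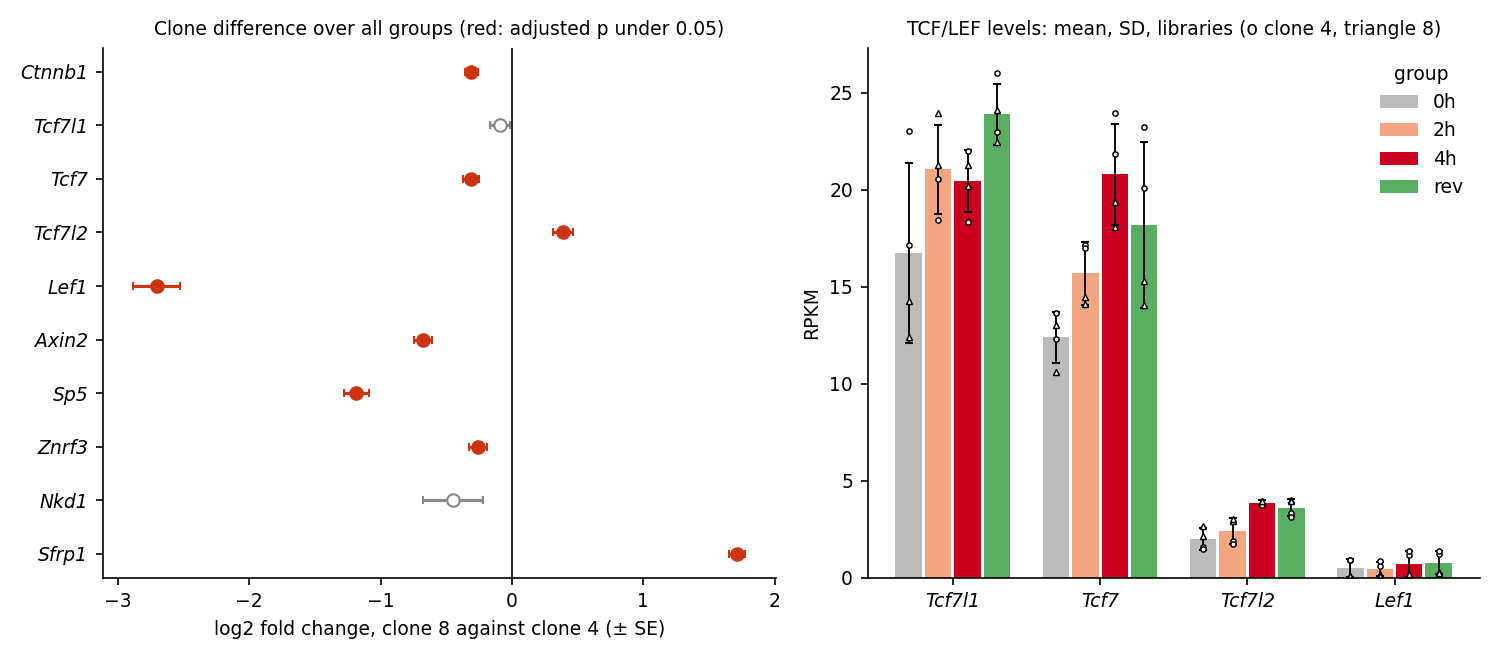
Left, log2 fold change with SE of clone 8 against clone 4 over all groups, filled red where adjusted p is under 0.05; Lef1 (-2.70) and Sfrp1 (1.71) lie furthest from 0. Right, RPKM of the 4 TCF/LEF genes as group means (bars from 0) with SD and single libraries, circles for clone 4 and triangles for clone 8.

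Whether the response itself differed between the clones was tested as an interaction. None of the 10 genes was called for the 2h, the 4h or the MEK inhibitor response (rev against 4h). Few genes were called at all, 0.0901%, 0.311% and 0.00819% of those tested. At unadjusted p under 0.05 there were 2, 4 and 1 of the 10 genes, beside 10.1%, 11.6% and 6.03% of all tested genes. The lowest p was that of Tcf7l1, whose log2 change at 2h was 0.76 greater in clone 8 (SE 0.17, edgeR adjusted p = 0.0626). It passed without 0h clone 4 replicate 2 (0.98), without 2h clone 8 replicate 1 (0.84) and without either 4h library of clone 4 (0.77). At 4h it was 0.60 greater (SE 0.17, edgeR adjusted p = 0.11) and passed without 0h clone 4 replicate 2 (0.82) or 4h clone 4 replicate 2 (0.74). Over all fits without a library these differences ran from 0.55 to 0.98 at 2h and from 0.39 to 0.82 at 4h. With library size alone the one at 2h was 0.68 and the one at 4h was -0.01. Tcf7l2 rose by 0.56 less in clone 8 at 4h, with a log2 difference of -0.56 (SE 0.19, edgeR adjusted p = 0.194). The difference of greatest size was that of Lef1, whose change at 2h was 2.15-fold greater in clone 8, with a large error (SE 0.56 on the log2 scale, edgeR adjusted p = 0.516).

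Likeness of pattern was described by Pearson's r of log2 CPM over the 16 libraries, each gene centred within its clone, among tested genes with a mean of at least 5 CPM. The points share groups and libraries, and the genes named are chosen for their r. The genes most like Tcf7l2 were Bnc2 (0.978), Bcor (0.958) and Fam169a (0.930), those most like Tcf7 were Msn (0.955), Trim44 (0.955) and Lpcat1 (0.949), and those most like Znrf3 were Hdlbp (0.961), Asb6 (0.955) and Kat6a (0.949). Tcf7l1 was most like Prrc2a (0.971), Phf12 (0.959) and Nacc1 (0.935), and Axin2 most like Sars2 (0.962), Mau2 (0.877) and Wee1 (0.872). For Sfrp1 the list was Acacb (0.917), Ttyh2 (0.900) and Inpp5d (0.899). For Sp5 it was Trmt5 (0.894), Nop53 (0.830) and Taf1c (0.829). Ctnnb1 was nearest to Mars (0.874), Ctsl (0.867) and Atp6v1h (0.859). Lef1 was nearest to Twf2 (0.843), Dgcr8 (0.830) and Dmac2 (0.814). Among the 10 genes, Tcf7 went with Tcf7l2 (0.841) and Znrf3 (0.826), Axin2 went with Tcf7l1 (0.653) and Sp5 (0.644), and Ctnnb1 ran against Tcf7l1 (-0.828).

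The rest of the pathway was read from 6 lists with 108 other genes, of which 71 passed the filter on low counts. At 4h against 0h, 21 of the 71 (29.6%) were higher and 13 (18.3%) lower, beside the 17.2% and 16.8% of all tested genes, so the share of lower genes was near that of all genes. For the 2h response the numbers were 15 (21.1%) and 11 (15.5%), beside 11.4% and 9.68%. Under the MEK inhibitor (rev against 4h) 8 (11.3%) were higher and 3 (4.23%) lower, beside 7.93% and 8.43%. These counts include Wnt7b (higher at 4h), Sfrp4 (lower at 2h) and Kremen2 (higher in rev against 4h). Each would not have passed the filter without the group in which it was highest, so these calls are no support. The 71 also hold Sp8, which passed only through 0h. The median log2 fold change of the 71 was 0.04 at 4h, beside -0.02 over all genes. The values of the genes named below depended on scaling in rev and between the clones. With library size alone, where the median of all genes in rev against 4h was -0.41, Fzd10 was at 0.40, Fzd8 at 0.24, Bcl9l at 0.18, Tnfrsf19 at 0.30, Lgr4 at -0.83 and Ctbp2 at -0.83. In rev against 0h Tle4 was then at 0.43 and Tle1 at 0.32, and between the clones Lrp6 was at 0.50 and Fgf4 at 0.13.

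Of 19 genes for Wnt ligands, 2 passed the filter. Wnt7b was at 0 to 0.597 CPM at 0h and 1.71 to 2.89 at 4h. It reached the level of the filter (1.54 CPM of the unscaled library, needed in 4 libraries) in no library of 0h or 2h, 4 of 4h and 2 of rev, so it entered the test only through the group where it was high, and its call at 4h is no support. Wnt5b was at 0.482 to 2.17 CPM at 0h and 1.76 to 2.85 at 4h (log2 0.98, SE 0.35, edgeR adjusted p = 0.0284). Both were below the 5 CPM of the rule for naming and were named after their values were seen, and at 0 to 21 counts per library in these groups they were near the limit of detection. Of 20 genes for secretion and receptors, 16 passed, and 6 (37.5%) were higher and 4 (25%) lower at 4h, beside 17.2% and 16.8% of all genes. Those higher included Lgr4, the R-spondin receptor (0.85, SE 0.09), Porcn, the acyltransferase that makes Wnts fit for secretion (0.63, SE 0.15), and the receptor Fzd5 (0.62, SE 0.10). Ror2, a receptor for non-canonical Wnts, was lower (-0.42, SE 0.12). At 2h Fzd5 (0.90, SE 0.09) and Fzd6 (0.55, SE 0.15) were higher, and Fzd10 (-0.38, SE 0.09) and Wls, the carrier of Wnts to the membrane (-0.69, SE 0.18), were lower. In rev against 4h, Fzd10 (0.83, SE 0.09) and Fzd8 (0.65, SE 0.18) were higher and Lgr4 was lower (-0.40, SE 0.09).

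Of 16 secreted modulators 5 passed the filter, and none was called at 4h against 0h in edgeR or at unadjusted p under 0.05 (0 genes). Sfrp4, a relative of Sfrp1, was lower at 2h against 0h (-1.15, SE 0.35) and higher at 4h against 2h (1.24, SE 0.37), and Kremen2, a receptor for Dickkopf proteins, was higher in rev than at 4h (1.26, SE 0.33) and than at 0h (1.78, SE 0.37). Both had a mean below 5 CPM and were named after their values were seen, and neither would have passed the filter without the group in which it was highest (4h for Sfrp4, rev for Kremen2), so these calls are no support. All 20 genes of Dishevelled and the destruction complex passed the filter, with 4 higher and 4 lower at 4h (20% each way, near the 17.2% and 16.8% of all genes), within -0.66 to 0.29. The largest changes were in Btrc, the F-box protein that recognises phosphorylated β-catenin (-0.66, SE 0.10), and in Dvl1, a Dishevelled (-0.46, SE 0.14). All 18 nuclear partners of β-catenin passed, with 6 (33.3%) higher and 2 (11.1%) lower at 4h. The corepressors Tle4 (0.91, SE 0.08) and Ctbp2 (0.76, SE 0.07) were higher, and Nlk, a kinase that acts on TCF/LEF factors, was lower (-0.46, SE 0.11). In rev, Tle4 (0.75, SE 0.08) and Tle1 (0.65, SE 0.09) were still above 0h, and Ctbp2 was below 4h (-0.41, SE 0.07). Bcl9l, a coactivator that binds β-catenin, was 0.61 above 4h (SE 0.12).

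Of 15 other genes known as β-catenin targets, 10 passed the filter, and at 4h 3 were higher and 3 lower (30% each way, beside 17.2% and 16.8% of all genes). The 10 include Sp8, below 5 CPM and named for its filter values. It reached the level of the filter in 4 libraries of 0h, 0 of 2h and 1 each of 4h and rev. Sp8 thus passed only through 0h, so any call of it is no support. The primitive streak factor T (Brachyury) was at 0.214 to 3.28 CPM at 0h, 5.26 to 16.8 at 4h and 1.66 to 3.91 in rev. It was 5.80-fold higher at 4h (log2 2.54, SE 0.27, edgeR adjusted p = 2.75e-09) and fell again in rev against 4h by 1.89 on the log2 scale (SE 0.24, edgeR adjusted p = 5.36e-07). T is also 1 of the 5 mesoderm markers whose summed level was given above. Fgf4, the autocrine growth factor of stem cells, was at 113 to 142 CPM at 0h, 47.6 to 79.2 at 4h and 149 to 187 in rev. It was 0.470 of its 0h level at 4h (-1.09, SE 0.09, edgeR adjusted p = 3.48e-12) and 2.73-fold higher in rev than at 4h (1.45, SE 0.09, edgeR adjusted p = 7.09e-15). Tnfrsf19, a receptor, was also lower at 4h (-0.97, SE 0.12) and higher in rev against 4h (0.72, SE 0.13). Both T and Fgf4 thus moved back in rev, where Tcf7l2, Tcf7 and Znrf3 did not pass the test against 4h. Whether these genes differ in their return was not tested. Between the clones, 15 of the 71 genes of all lists (21.1%) were higher in clone 8 and 13 (18.3%) lower, beside 15.4% and 13.7% of all genes. Notum (-0.93, SE 0.11), Porcn (-0.91, SE 0.10), Tnfrsf19 (-0.79, SE 0.09) and Cdx1 (-0.76, SE 0.06) were lower in clone 8, and the receptor Lrp6 (0.77, SE 0.06) and Fgf4 (0.38, SE 0.06) were higher. For the genes of these lists given with a change but no printed adjusted p, edgeR's adjusted p was under 0.05.

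**Figure D4:**
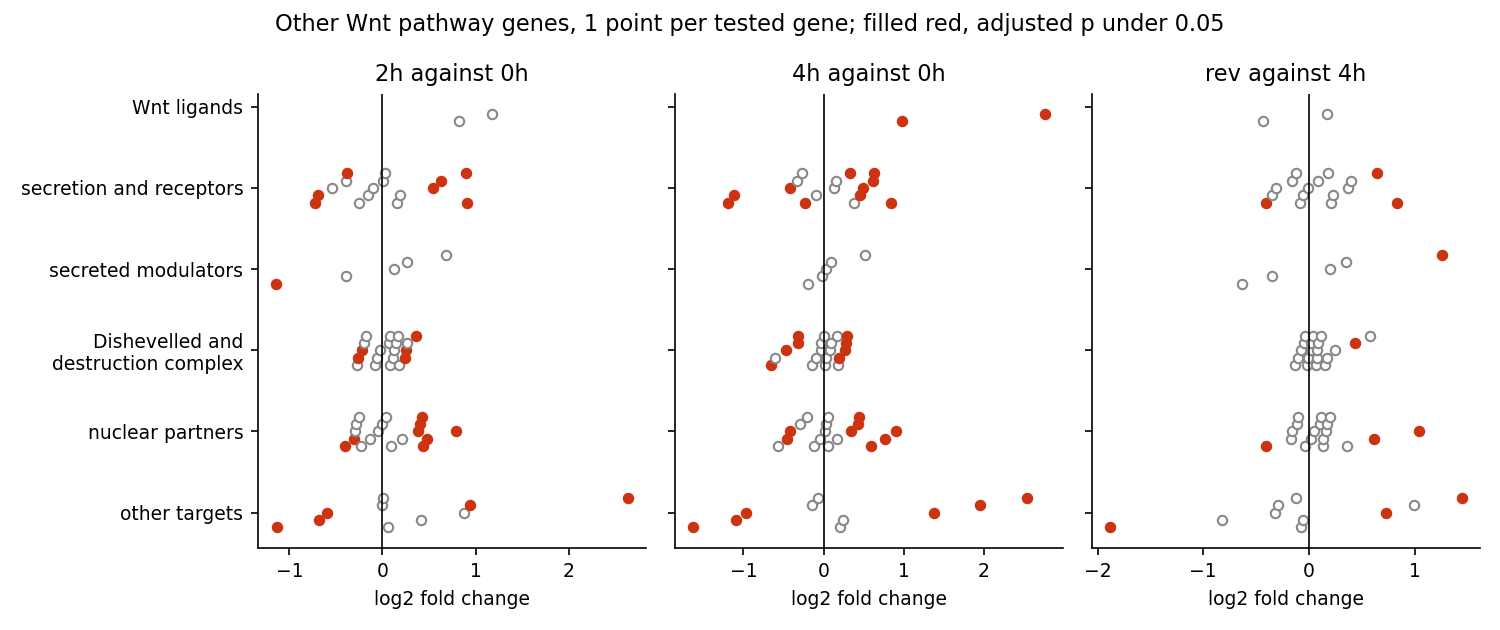
Log2 fold change of the 71 other Wnt pathway genes that passed the filter, 1 point each, by list and for 3 comparisons; points are spread vertically within a list to keep them apart. Filled red points have adjusted p under 0.05. At 4h, 21 points are red to the right of 0 and 13 to the left.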

How the data were processed

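RNA of 16 samples was depleted of ribosomal RNA and sequenced. The authors deposited unnormalized read counts for each Ensembl gene. STAR 2.5.3a, bcl2fastq 2.19.1 and the build mm10 are named per the submitters' processing notes; the counting tool, annotation and strand setting are not given in the sources used here. Symbols, positions and exon lengths came from GENCODE M21 (52489 of 52636 identifiers matched) and promoter windows from RefSeq. Titles gave the group, clone and replicate number of each library.

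Counts were analysed with edgeR 4.0.16 in R 4.3.3, with limma 3.58.1. The filter on low counts, filterByExpr by group, kept 12215 genes. A quasi-likelihood model of all 16 libraries with group and clone, scaled by TMM, gave each two-sided comparison, with Benjamini-Hochberg adjustment over all tested genes at 0.05. A model of 8 group and clone cells gave the differences between clones. The procedure was run on simulated counts without clone differences or shifts in the abundant models. It therefore did not examine how calls depend on these, and its outcome is not reported here. CPM use the TMM-scaled library size; levels per length divide by exon length. Without molecular identifiers, read counts are not independent molecules.

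All 10 genes are described in every comparison. From the wider lists, up to 6 genes in each direction with the largest change, adjusted p under 0.05 and a mean of at least 5 CPM could be named; other naming is marked where it occurs. The genes and lists were chosen with earlier results of these data known. The genes most like Nkd1 in pattern are not reported here. Alternatives were RLE size factors, library size alone, 2 other low-count filters, no clone term, a replicate block, 2 groups only, DESeq2 1.42.0, 2 treatments of the 8 most abundant models, and each library left out.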

Additional observations from a re-analysis of the deposited data

Results flagged for a closer look

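Of 40 groups of 4 libraries (10 genes in 4 groups), 1 held a library far from the others by Dixon's test: Nkd1 at 4h, where clone 4 replicate 2 was at 3.27 CPM and the other 3 libraries at 1.32 to 1.58 CPM. Chance alone marks about 1 group in 20 where all 4 values come from 1 normal population, and the Nkd1 values rest on 6 to 28 counts per library. Each group held 2 libraries of each clone, compared without centring on clone. Where the clones lie apart, as for Sfrp1, the test hardly marks any library. The other groups are thus not shown to lack such libraries. Sp5 at 4h, for example, was at 19.9 and 10.8 CPM in clone 8.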

How the results depend on the processing

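Over all alternatives, 1386 values kept their direction and side of the threshold, 96 fell below it, 11 passed it and 40 changed sign. Of the 40, 1 was a called value, Axin2 in rev against 4h, at -0.03 with library size alone. Number of the 10 genes called: with library size alone 0 at 2h against 0h, 2 at 4h against 0h, and 0 at 4h against 2h, in rev against 4h and in rev against 0h. Without the clone term it was 0, 3 and 0 in the first 3 and 0 in rev against 4h. DESeq2 called 4 at 4h against 0h. In rev against 4h, the 2 groups alone gave 2 and the share of the 8 most abundant models as a covariate gave 0. Leaving out 1 library gave 2 to 6 genes at 2h against 0h, 4 to 7 at 4h against 0h, 2 to 4 at 4h against 2h, 1 to 2 in rev against 4h, and 0 to 1 for the differences between clones at 2h and at 4h.

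Same-numbered libraries of a clone were not taken as pairs: r of their residuals ran from -0.288 to 0.182 over 12 pairs of groups and was over 0.1 in 3, those among 0h, 2h and 4h of clone 8 (0.182, 0.124 and 0.16). With the replicate block in place of clone, 5 genes were called at 2h against 0h, 7 at 4h against 0h, 3 at 4h against 2h, 1 in rev against 4h and 6 in rev against 0h. Tcf7l2 at 2h (0.31) and Lef1 at 4h against 2h (0.68) were not among them.

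The other 39 sign changes were of values that did not pass the test. With library size alone they were Lef1 at 2h (0.04), Axin2 (0.09) and Ctnnb1 (0.02) at 4h against 0h, Tcf7l1 (0.03) and Nkd1 (0.08) at 4h against 2h, Lef1 (-0.16), Tcf7l1 (-0.21) and Sfrp1 (-0.22) in rev against 4h, and the difference between clones of Tcf7l1 at 4h (-0.01). With the covariate they were Axin2 (0.12) and Nkd1 (0.09) at 4h against 0h, Ctnnb1 (-0.01) and Nkd1 (0.14) at 4h against 2h, and Lef1 (-0.13), Tcf7l2 (0.06), Ctnnb1 (0.03) and Znrf3 (0.01) in rev against 4h. At 4h against 2h, Sp5 (0.04) and Nkd1 (0.07) turned without the clone term and Ctnnb1 (-0.00) without a filter. Without 1 library, values ran from -0.33 to 0.10 (Lef1) and -0.30 to 0.03 (Nkd1) at 2h, from -0.12 to 0.01 (Axin2) and -0.59 to 0.11 (Nkd1) at 4h against 0h, and from -0.14 to 0.01 (Tcf7l1), -0.03 to 0.05 (Ctnnb1) and -0.44 to 0.23 (Nkd1) at 4h against 2h. In rev against 4h they ran from -0.69 to 0.06 (Nkd1), -0.16 to 0.06 (Sp5) and -0.06 to 0.03 (Znrf3).

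Of all tested genes, the numbers called higher and lower without the clone term were 747 and 462 at 2h against 0h, 1459 and 1323 at 4h against 0h, 129 and 90 from 2h to 4h, 418 and 463 from 4h to rev and 876 and 576 in rev over 0h, beside 1390 and 1182, 2098 and 2048, 464 and 430, 969 and 1030, and 1518 and 1204. With the covariate they were 577 and 652 in rev against 4h. Without 1 library they fell to 743 lower at 2h against 0h, 303 higher and 260 lower at 4h against 2h, and 644 higher in rev against 4h. The differences between clones, 11 genes at 2h, 38 at 4h and 1 in rev against 4h, were 1 to 35, 6 to 102 and 0 to 6 without 1 library, and 3, 34 and 0 with library size alone. Depth limits Nkd1 and, in clone 8, Lef1.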
